A study of Mus musculus with 4 samples.

Results

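The genes described here are 37 that build, staff and police the endoplasmic reticulum (ER) of the mouse cell: its chaperones, disulfide enzymes and degradation machinery, the sensors that watch over them and part of the import and export apparatus. They were picked by name from the 25413 genes of the count table, and each name matched 1 gene. RNA came from wild-type EpH4, a mouse mammary epithelial cell line in 2D culture, sequenced as polyA libraries in 2 groups of 2. The groups are labelled PM2.5, the name of fine airborne particulate matter, and Control. Both share the wild-type genotype and 1 batch label. Dose, exposure time and whether replicates were separate cultures are not given in the labels, so p-values measure the spread between these libraries, which may be technical.

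Proteins that enter the ER are threaded through the Sec61 channel, glycosylated, folded by the HSP70 protein BiP and the lectins calnexin and calreticulin, and cross-linked by disulfide isomerases that the Ero1 oxidases recharge. Chains that do not fold are trimmed by the Edem proteins and drawn back to the cytosol through a complex of Sel1l, Syvn1 and the derlins for destruction by the proteasome. When unfolded chains build up, the membrane sensors Ern1 (IRE1), Atf6 and Eif2ak3 (PERK) start the unfolded protein response, in which Xbp1 and cleaved ATF6 switch on many of the genes listed here. IRE1 acts by splicing Xbp1 mRNA and PERK by phosphorylating eIF2alpha, and counts per gene show neither step.

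Total counts were 20232277 and 18548478 in the PM2.5 libraries and 19562930 and 26206329 in the Control libraries. Of 14 markers of mammary epithelium, 13 averaged under 1 CPM (counts scaled to library size with TMM factors) and Epcam, Krt5, Krt18, Krt19, Cldn4 and Esrp1 had 0 counts in all 4 libraries. The exception was the basal keratin Krt14, with 20.7 and 18.6 CPM in PM2.5, against 53.1 and 51 CPM in Control. The 10 fibroblast or mesenchymal markers summed to 6629 and 7268 CPM in PM2.5, against 8897 and 9561 CPM in Control, so the RNA did not carry the marker profile that the cell type label names. That sum was carried by Fn1, Vim and Col1a2, and members of the list differed in direction: Dcn had 221 and 280 CPM in PM2.5, against 44.1 and 83.7 CPM in Control, and Col3a1 had 7.03 and 9.49 CPM in PM2.5, against 2.52 and 2.71 CPM in Control. Macrophage markers summed to 15.7 and 17.7 CPM in PM2.5 and 8.99 and 10 CPM in Control, and endothelial markers stayed under 1 CPM in sum. The macrophage sum was carried by Cd68 and Lyz2. Cd68 had 9.02 and 10.3 CPM in PM2.5, against 3.63 and 4.23 CPM in Control. The other 4 of the 6 macrophage markers averaged under 1 CPM, and Itgam had 0 counts in all 4 libraries. The part of these marker differences in the results below was not tested, and in bulk RNA fewer cells of a type and less RNA per cell cannot be told apart.

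Many genes of the unfolded protein response carry the ER stress element (ERSE) near their start, bound by the factor NF-Y and by ATF6 or XBP1, and it was first described in promoters of chaperone genes such as Hspa5, Hsp90b1 and Calr. The letters CCAAT, then any 9 bases, then CCACG were searched on both strands of the RefSeq window of 250 bases before to 50 after each gene's start (build GRCm38.p6). Of the 31 genes with a window, 10 held the element (32.3%), against 39 of all 32851 windows (0.119%). The first share counts genes and the second windows, of which a gene can have several. All windows include those of the genes described. These genes belong to the family in which the element was defined, so the overlap is a description and a match of letters is not a proven site. The 19 bases of every match are shown so that the fixed ends and the variable middle can be compared, written in the direction of the element, with the fixed letters in capitals:
Dnajc3, 105 bases before the start, same strand: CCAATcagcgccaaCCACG
Creld2, 126 bases before the start, opposite strand: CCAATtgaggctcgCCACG
Syvn1, 44 bases before the start, same strand: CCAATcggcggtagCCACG
Ero1b, 201 bases before the start, opposite strand: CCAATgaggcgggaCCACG
Pdia6, 98 bases before the start, same strand: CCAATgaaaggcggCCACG
Hsp90b1, 212 bases before the start, same strand: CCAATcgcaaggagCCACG
Hsp90b1, 107 bases before the start, opposite strand: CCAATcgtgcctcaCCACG
Hspa5, 65 bases before the start, same strand: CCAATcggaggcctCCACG
Calr, 162 bases before the start, opposite strand: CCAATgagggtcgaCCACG
Canx, 145 bases before the start, same strand: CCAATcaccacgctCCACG
Derl3, 156 bases before the start, opposite strand: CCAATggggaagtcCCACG

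Measured at the base furthest from the start, these elements lay between 44 bases (Syvn1) and 212 bases (Hsp90b1, which holds a second at 107) before it. For an element on the opposite strand that base is the last one as written above. A related form, ERSE-II (ATTGG, 1 base, CCACG), was present in the windows of Herpud1 and Dnajb11 and in 0.0365% of all windows. The letters TGACGTGG, a core of the XBP1-binding element, were present in that of Sec24d and in 0.676% of all windows. No window of the genes described held more than 1 of these kinds, and 3 of all windows did. Atf6, Derl1, Hyou1, Manf, Sec61a1 and Sil1 had no window here. The whole windows of the 6 genes with an ERSE and the smallest p-values among those past the threshold are given with the element in capitals; for an element on the opposite strand the capitals read CGTGG, 9 bases, ATTGG.
Dnajc3, chr14:118937682-118937981, plus strand: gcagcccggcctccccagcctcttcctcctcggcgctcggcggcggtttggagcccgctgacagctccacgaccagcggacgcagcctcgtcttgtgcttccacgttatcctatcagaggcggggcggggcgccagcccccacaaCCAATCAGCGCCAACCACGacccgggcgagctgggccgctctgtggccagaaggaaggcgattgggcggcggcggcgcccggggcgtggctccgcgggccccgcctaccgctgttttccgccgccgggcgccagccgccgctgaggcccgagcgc
Creld2, chr15:88819396-88819695, plus strand: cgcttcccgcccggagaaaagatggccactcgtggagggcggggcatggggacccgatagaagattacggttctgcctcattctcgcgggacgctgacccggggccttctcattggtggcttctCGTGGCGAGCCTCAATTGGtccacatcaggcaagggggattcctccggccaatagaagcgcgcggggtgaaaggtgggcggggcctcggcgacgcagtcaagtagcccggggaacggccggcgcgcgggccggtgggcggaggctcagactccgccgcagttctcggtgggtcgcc
Syvn1, chr19:6046326-6046625, plus strand: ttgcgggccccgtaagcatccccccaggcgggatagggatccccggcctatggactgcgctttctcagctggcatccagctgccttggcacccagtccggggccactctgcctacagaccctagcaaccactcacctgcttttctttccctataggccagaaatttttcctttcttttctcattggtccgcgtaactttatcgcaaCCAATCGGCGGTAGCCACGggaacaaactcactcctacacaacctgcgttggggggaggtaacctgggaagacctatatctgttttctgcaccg
Ero1b, chr13:12565633-12565932, plus strand: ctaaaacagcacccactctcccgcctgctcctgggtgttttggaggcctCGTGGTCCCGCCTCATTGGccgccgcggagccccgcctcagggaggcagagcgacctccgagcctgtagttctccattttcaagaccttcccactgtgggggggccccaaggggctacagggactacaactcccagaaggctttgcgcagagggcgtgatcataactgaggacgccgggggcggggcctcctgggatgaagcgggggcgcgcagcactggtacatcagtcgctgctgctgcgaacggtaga
Pdia6, chr12:17266339-17266638, plus strand: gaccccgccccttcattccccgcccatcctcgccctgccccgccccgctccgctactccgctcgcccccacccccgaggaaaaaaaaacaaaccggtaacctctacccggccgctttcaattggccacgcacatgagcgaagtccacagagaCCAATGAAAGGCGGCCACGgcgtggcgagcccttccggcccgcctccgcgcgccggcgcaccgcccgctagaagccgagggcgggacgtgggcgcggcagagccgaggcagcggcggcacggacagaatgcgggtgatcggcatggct
Hsp90b1, chr10:86705395-86705694, minus strand: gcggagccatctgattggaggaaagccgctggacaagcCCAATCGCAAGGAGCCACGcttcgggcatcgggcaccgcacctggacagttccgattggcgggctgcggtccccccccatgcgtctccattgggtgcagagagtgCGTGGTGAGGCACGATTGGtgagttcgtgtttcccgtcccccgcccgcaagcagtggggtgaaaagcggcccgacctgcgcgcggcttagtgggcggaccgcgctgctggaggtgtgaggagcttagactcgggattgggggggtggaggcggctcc

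This machinery made up a slightly larger part of the RNA in PM2.5 cells than in Control cells. The 37 genes summed to 8417 and 8344 CPM in PM2.5, against 7854 and 7786 CPM in Control. Of the 36 that passed the filter on low counts, 18 rose in PM2.5 and 5 fell (edgeR quasi-likelihood test, Benjamini-Hochberg adjusted p below 0.05 over all 12478 genes tested). Over all genes tested, 19.2% were called higher and 20.4% lower, so the number that rose is above that background and the number that fell is not. The median log2 fold change was 0.18, against 0.01 over all genes tested. The changes were small: the genes that rose did so 1.13- to 1.53-fold, and those that fell kept 0.672 to 0.888 of their Control level. PM2.5 and Control libraries did not overlap in 32 of the 36, with PM2.5 above in 24 and below in 8, against 71.0% of all genes tested that did not overlap.

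**Figure D1:**
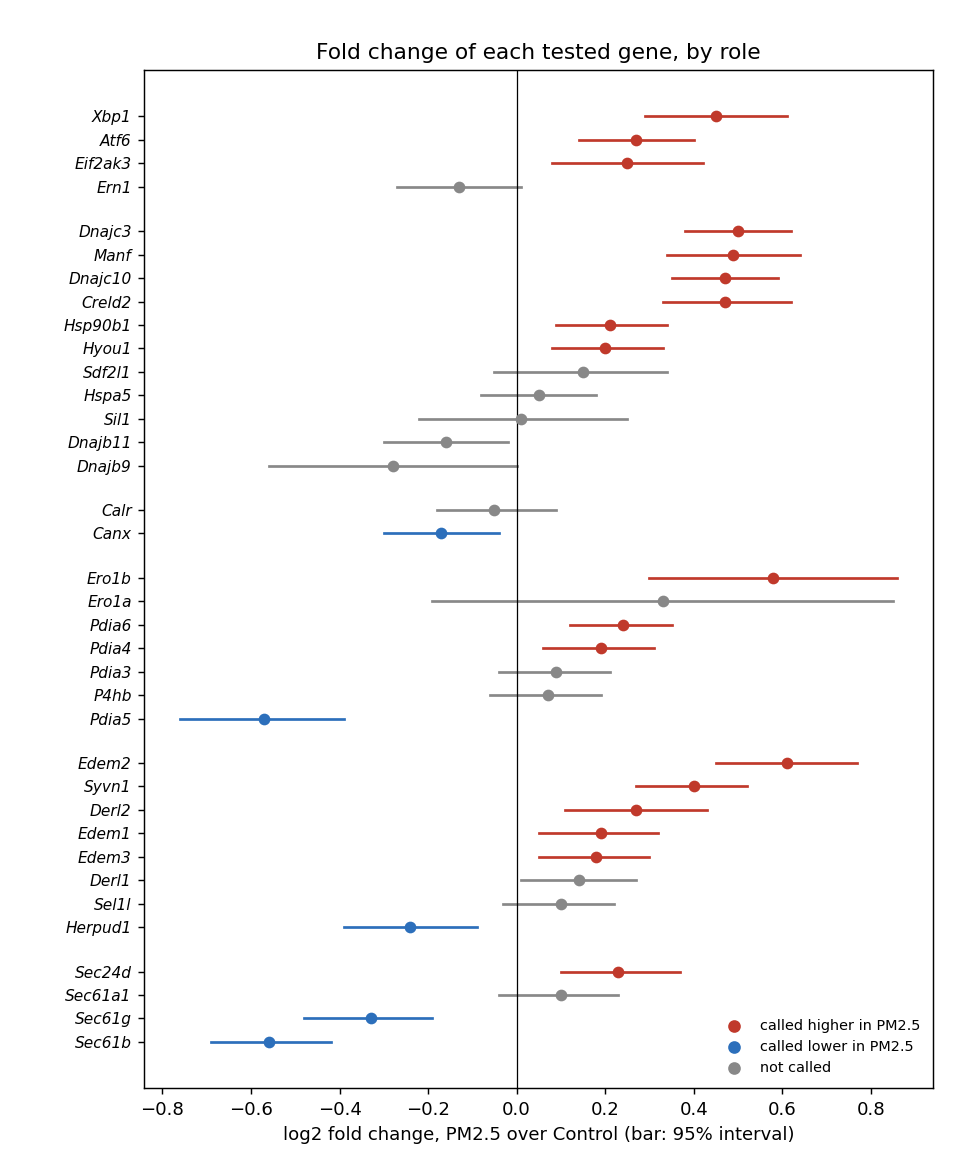
Log2 fold change, PM2.5 over Control, of the 36 tested genes grouped by role, with the 95% interval of the test as a bar. The 18 genes called higher reach 0.61 (Edem2) and the 5 called lower reach -0.57 (Pdia5), and no gene passes a 2-fold change.

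The counts by role that follow stand beside the same 19.2% higher and 20.4% lower over all genes tested. Among the sensors and their factors, 3 of 4 rose and Ern1 was not called. Xbp1 (ENSMUSG00000020484, GRCm39 chromosome 11, 5470659 to 5475893, plus strand), the transcription factor whose mRNA IRE1 splices, had 75.7 and 83.5 CPM in the PM2.5 libraries, against 55.9 and 60.5 CPM in the Control libraries. The groups did not overlap, and the log2 fold change was 0.45 (SE 0.073, adjusted p = 8.084e-04). Atf6, the sensor that is cleaved in the Golgi to release a transcription factor, had 147 and 154 CPM in PM2.5, against 127 and 122 CPM in Control, or 0.27 on the log2 scale (SE 0.058, adjusted p = 0.00455). The kinase PERK, Eif2ak3, had 35.7 and 37.8 CPM in PM2.5 and 30.6 and 31.1 CPM in Control, or 0.25 on the log2 scale (SE 0.077, adjusted p = 0.0252). Both sensors were thus raised by about the same proportion. Ern1, the kinase and nuclease IRE1, lay the other way, at 63.8 and 63.3 CPM in PM2.5 and 71.1 and 68.1 CPM in Control. Its log2 fold change of -0.13 was not called (95% interval -0.27 to 0.01, adjusted p = 0.123). Without PM2.5 replicate 2 the call on Atf6 ended (adjusted p = 0.058), as did that on Eif2ak3 when either PM2.5 library or Control replicate 1 was dropped. The call on Eif2ak3 also ended with all 4 libraries under DESeq2 (adjusted p = 0.108) and with no filter on low counts (adjusted p = 0.0527).

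In the group of the HSP70 and HSP90 chaperones and their partners, 6 of 11 rose and 0 fell, with a median log2 fold change of 0.20. The best known of them, Hspa5, which encodes BiP and is a standard readout of ER stress, was not among the 6. Hspa5 (ENSMUSG00000026864, chromosome 2, 34661982 to 34667559, plus strand) had 733 and 709 CPM in PM2.5, against 717 and 676 CPM in Control, and the groups overlapped. Its log2 fold change was 0.05 with a 95% interval of -0.08 to 0.18 (adjusted p = 0.526). Set against its chromosomal neighbours, as described further on, Hspa5 was called higher (0.17, adjusted p = 0.0397).

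Several partners of BiP did rise. Dnajc3 (p58IPK; ENSMUSG00000022136, chromosome 14, 119175388 to 119219109, plus strand), a J-domain co-chaperone, had 151 and 152 CPM in PM2.5 and 108 and 106 CPM in Control. Dnajc10 (ERdj5), a J-domain protein that reduces disulfides of chains bound for degradation, had 328 and 332 CPM in PM2.5, against 235 and 241 CPM in Control, or 0.47 on the log2 scale (SE 0.053, adjusted p = 7.930e-05). Both were raised by nearly the same amount in the 2 PM2.5 libraries, with an SD of 0.965 CPM for Dnajc3 and 3.46 CPM for Dnajc10. Manf, a secreted protein that binds BiP, had 122 and 115 CPM in PM2.5 and 88.8 and 79.9 CPM in Control. Creld2, a secreted ER stress protein with isomerase activity, had 63.2 and 64.7 CPM in PM2.5, against 47.1 and 45.1 CPM in Control, or 0.47 on the log2 scale (SE 0.066, adjusted p = 3.330e-04). The log2 fold change was 0.50 for Dnajc3 (SE 0.055, adjusted p = 7.312e-05) and 0.49 for Manf (SE 0.068, adjusted p = 2.960e-04), so these 4 rose 1.39- to 1.41-fold, close to one another. The deposited region of Manf overlaps Dcaf1 on the opposite strand and Rbm15b on the same strand. Their log2 fold changes were -0.17 and -0.13 and not called. Rbm15b held 10398 counts, against 8444 for Manf, and use of strand would not separate reads where these genes overlap. For Dcaf1, whether counting used strand is not given, so the count of Manf is uncertain on both grounds.

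The abundant HSP90 of the ER, Hsp90b1 (GRP94), had 992 and 946 CPM in PM2.5, against 824 and 848 CPM in Control, or 0.21 on the log2 scale (SE 0.057, adjusted p = 0.0135). Hyou1 (GRP170), a nucleotide exchange factor of BiP, had 336 and 341 CPM in PM2.5, against 306 and 283 CPM in Control, or 0.20 on the log2 scale (SE 0.058, adjusted p = 0.0176). Both calls ended when either PM2.5 library was dropped, and that on Hyou1 also ended without Control replicate 2, with no filter (adjusted p = 0.0508), with total gene reads, a second count in the files described further on (adjusted p = 0.0552) and against its neighbours (adjusted p = 0.0667). The other exchange factor, Sil1, had 17.2 and 20.1 CPM in PM2.5 and 18 and 18.8 CPM in Control. Its log2 fold change was 0.01 (95% interval -0.22 to 0.25). With total gene reads Sil1 was 0.24 on the log2 scale and also not called (adjusted p = 0.0573). Dnajb11 (ERdj3) and Dnajb9 (ERdj4), J-domain co-chaperones of BiP, lay below Control in both PM2.5 libraries, with log2 fold changes of -0.16 and -0.28 that did not pass the test (adjusted p = 0.0715 and 0.104). Dnajb11 was called lower with the replicate number as a block (adjusted p = 0.0282), with total gene reads (adjusted p = 0.0396) and without Control replicate 2 (-0.22, adjusted p = 0.0169), and it was 0.11 against its chromosomal neighbours (adjusted p = 0.189). Sdf2l1, which keeps chains bound to ERdj3 from aggregating, was not called (0.15 on the log2 scale, adjusted p = 0.218). The J-domain partners of BiP were therefore split, with Dnajc3 and Dnajc10 called higher and Dnajb9 and Dnajb11 not.

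Of the lectin chaperones, which hold newly glycosylated chains, 0 rose and 1 fell. Canx, calnexin, had 875 and 834 CPM in PM2.5, against 978 and 945 CPM in Control, or -0.17 on the log2 scale (SE 0.057, adjusted p = 0.0363). That call ended when either PM2.5 library or Control replicate 1 was dropped, with scaling to library size or upper quartile, with limma on RPKM and against its chromosomal neighbours. Calr, calreticulin, had 784 and 752 CPM in PM2.5 and 827 and 761 CPM in Control. Its groups overlapped, and the log2 fold change of -0.05 was not called (95% interval -0.18 to 0.09).

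The disulfide isomerases and oxidases had 3 of 7 higher and 1 lower. Pdia6, an isomerase that also binds IRE1, had 421 and 420 CPM in PM2.5, against 358 and 355 CPM in Control, or 0.24 on the log2 scale (SE 0.052, adjusted p = 0.00477). Pdia4 (ERp72) had 171 and 167 CPM in PM2.5, against 151 and 147 CPM in Control, or 0.19 on the log2 scale (SE 0.055, adjusted p = 0.0208). That call ended when either PM2.5 library or Control replicate 2 was dropped, with no filter (adjusted p = 0.0601) and with total gene reads (adjusted p = 0.0644). Pdia3 (ERp57), the isomerase that works with the lectins, and P4hb, the founding protein disulfide isomerase, had log2 fold changes of 0.09 (95% interval -0.04 to 0.21) and 0.07 (95% interval -0.06 to 0.19). Neither was called, though Pdia3 was with scaling to library size only (0.15, adjusted p = 0.0431). Against their neighbours P4hb was 0.20, Pdia6 and Pdia4 were each 0.18 and Pdia3 was 0.05 on the log2 scale. Catsper2, on the opposite strand, overlaps Pdia3 but held few counts (352, against 59286).

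Pdia5 was the 1 gene called lower among the 7 isomerases and oxidases. It lies on the minus strand of chromosome 16 (ENSMUSG00000022844, 35217682 to 35311243) and had 20.3 and 20 CPM in PM2.5, against 30.6 and 29.5 CPM in Control, or -0.57 on the log2 scale (PM2.5 over Control, SE 0.085, adjusted p = 4.694e-04). In human cells its protein has been tied to activation of ATF6. Pdia5 was the only one of the 5 genes that fell whose call held in all 16 alternative analyses, including those without each library and the one that sets a gene against its chromosomal neighbours.

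The Ero1 oxidases differed in how well the replicates agreed. Ero1b had 13.8 and 13.4 CPM in PM2.5, against 8.2 and 9.77 CPM in Control, or 0.58 on the log2 scale (SE 0.13, adjusted p = 0.00458). Ero1a, its paralog and a known target of hypoxia signalling, had 130 and 178 CPM in PM2.5, against 82.4 and 162 CPM in Control. The groups overlapped, since Control replicate 2 lay above PM2.5 replicate 1. Its Control libraries differed 1.97-fold, against a median of 1.04-fold and at most 1.19-fold for the other tested genes of the group, so its log2 fold change of 0.33 had a 95% interval of -0.19 to 0.85 (adjusted p = 0.296). The value depends on which Control library is used: without Control replicate 1 the log2 fold change was -0.07 (adjusted p = 0.662), and without Control replicate 2 it was 0.90 (adjusted p = 3.059e-05). With the replicate number as a block, Ero1a was called higher (log2 fold change 0.38, adjusted p = 0.00157).

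Of the 8 degradation genes tested, 5 rose and 1 fell, with a median log2 fold change of 0.18. Edem2 (ENSMUSG00000038312, chromosome 2, 155543597 to 155571395, minus strand), a mannose-trimming protein that starts the removal of glycosylated chains, had 54 and 55.9 CPM in PM2.5, against 34.6 and 37 CPM in Control. Its log2 fold change of 0.61 (SE 0.072, adjusted p = 1.078e-04) was the highest of the 36. Its relatives Edem1 and Edem3 had 73.3 and 76.8 CPM and 91.6 and 93.4 CPM in PM2.5, against 65.1 and 66.7 CPM and 81.8 and 81.9 CPM in Control. Those log2 fold changes of 0.19 and 0.18 (adjusted p = 0.0364 and 0.0347) were not called when any 1 library was dropped, while the call on Edem2 held in each case. With all 4 libraries they also lost the call under DESeq2 (adjusted p = 0.124 for Edem1 and 0.117 for Edem3), with no filter, with total gene reads and with limma on log2(RPKM + 1), Edem1 also on log2(RPKM + 0.1) and Edem3 also against its neighbours.

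Syvn1 (HRD1), the ubiquitin ligase of the complex, had 109 CPM in each PM2.5 library, against 82 and 83.3 CPM in Control, or 0.40 on the log2 scale (SE 0.057, adjusted p = 4.113e-04). Against its neighbours, whose median was 0.18, Syvn1 was 0.22 (adjusted p = 0.0148). Its partner Sel1l, with 175 and 187 CPM in PM2.5 and 171 and 167 CPM in Control, was not called (log2 fold change 0.10, 95% interval -0.03 to 0.22). Derl2, a derlin of the exit channel, had 49.5 and 49.9 CPM in PM2.5, against 39.6 and 42.7 CPM in Control, or 0.27 on the log2 scale (SE 0.072, adjusted p = 0.0127). Derl1 was not called (0.14 on the log2 scale, adjusted p = 0.0901). With scaling to library size only, Sel1l (0.16, adjusted p = 0.0418) and Derl1 (0.20, adjusted p = 0.0215) were called higher, as was Derl1 with upper quartile scaling (adjusted p = 0.0339). The call on Derl2 ended when either PM2.5 library or Control replicate 1 was dropped and against its neighbours (adjusted p = 0.0689). Syvn1 overlaps Mrpl49 and Derl2 overlaps Mis12 on the opposite strand, each with a fold change near 0 (log2 0.07 and -0.02). Use of strand is not given, so their counts carry the uncertainty given for Manf and Dcaf1. Derl3, a derlin of secretory tissues, had 0 and 0 counts in PM2.5 and 0 and 3 in Control, at or under the floor of 3 counts (0.114 to 0.162 CPM per library), and was not tested.

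Herpud1, a membrane protein that gathers the degradation complex and is strongly induced by ER stress, was the 1 degradation gene that fell. It had 47.1 and 45.7 CPM in PM2.5, against 56 and 53.6 CPM in Control, or -0.24 on the log2 scale (SE 0.068, adjusted p = 0.0182). The groups did not overlap, but the call ended with DESeq2, with scaling to library size, when either PM2.5 library or Control replicate 1 was dropped and against its chromosomal neighbours.

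The channel that carries chains into the ER changed unevenly by subunit. Sec61b (ENSMUSG00000053317, chromosome 4, 47474658 to 47483242, plus strand), the beta subunit, had 63.9 and 61.4 CPM in PM2.5, against 93.1 and 91.6 CPM in Control, and Sec61g, the gamma subunit, had 62.9 and 63.2 CPM in PM2.5, against 76.3 and 82.4 CPM in Control. Both fell, with log2 fold changes of -0.56 (SE 0.061, adjusted p = 6.913e-05) and -0.33 (SE 0.065, adjusted p = 0.00254). Sec61a1, the pore-forming alpha subunit, had 262 and 263 CPM in PM2.5 and 258 and 233 CPM in Control, a log2 fold change of 0.10 that was not called (95% interval -0.04 to 0.23). Sec61a1 was called higher without Control replicate 1 (0.17, adjusted p = 0.0473) and with scaling to library size only (0.16, adjusted p = 0.0445), and was 0.02 without Control replicate 2. Both small subunits lay among lowered neighbours, given below, and RefSeq lists pseudogenes of Sec61g, so its count is uncertain. Sec24d, a cargo adaptor of the COPII coat that buds vesicles from the ER, had 114 and 123 CPM in PM2.5, against 103 and 99.1 CPM in Control, or 0.23 on the log2 scale (SE 0.062, adjusted p = 0.0125). The call on Sec24d ended without PM2.5 replicate 2 and against its neighbours (adjusted p = 0.416).

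**Figure D2:**
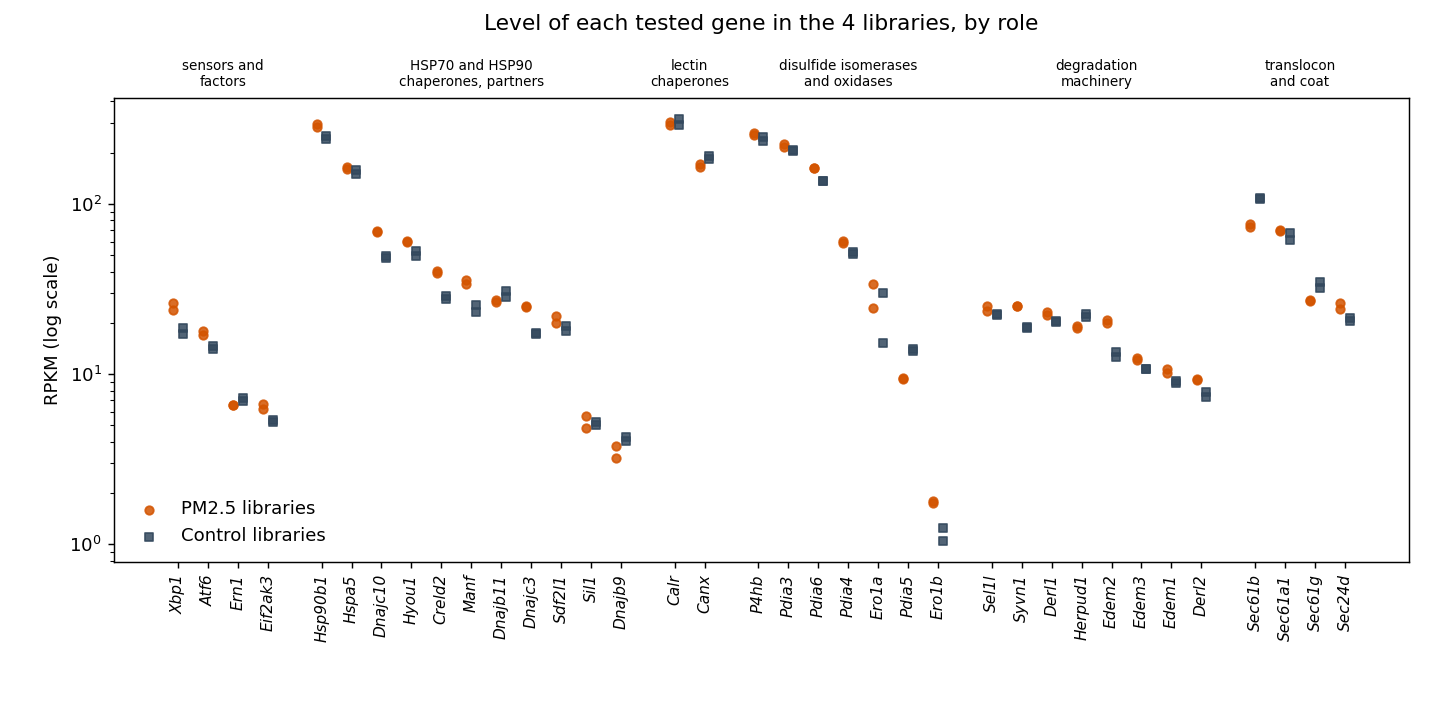
RPKM of the 36 tested genes in each library, on a log axis, grouped by role and ordered by level within a role. PM2.5 (circles) and Control (squares) points lie close together for most genes, Ero1a shows the widest Control spread, and Derl3, not plotted, was listed at 0 in 3 libraries.

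Levels compared per length, as the authors' RPKM, spanned a wide range. Calr averaged 297 RPKM in PM2.5 and 302 RPKM in Control, and Hsp90b1 290 and P4hb 258 RPKM in PM2.5, against 246 and 242 RPKM in Control. Pdia3, Canx, Hspa5 and Pdia6 followed, at 221, 168, 162 and 163 RPKM in PM2.5, against 205, 187, 154 and 136 RPKM in Control, with Hspa5 and Pdia6 not separable in PM2.5. Sensors lay far lower, with Atf6, Ern1 and Eif2ak3 at 17.5, 6.58 and 6.41 RPKM in PM2.5, against 14.3, 7.1 and 5.3 RPKM in Control. The lowest of the tested genes was Ero1b, at 1.77 RPKM in PM2.5 and 1.15 RPKM in Control, well under its paralog Ero1a at 29.1 RPKM in PM2.5 and 22.6 RPKM in Control.

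The chromosomal surroundings moved with several of these results. For each gene the median log2 fold change of the nearest 50 tested genes on each side was taken as its neighbour median. All 5 genes that fell had a neighbour median below 0, from -0.49 for Sec61b to -0.18 for Canx, while over all genes tested 5154 of 12478 did. The 18 genes that rose had neighbour medians from -0.23 to 0.18. Of these, 14 were above 0, as were those of 7324 of the 12478 genes tested. Whether a neighbourhood shift and the change of the gene in it share a source was not tested.

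**Figure D3:**
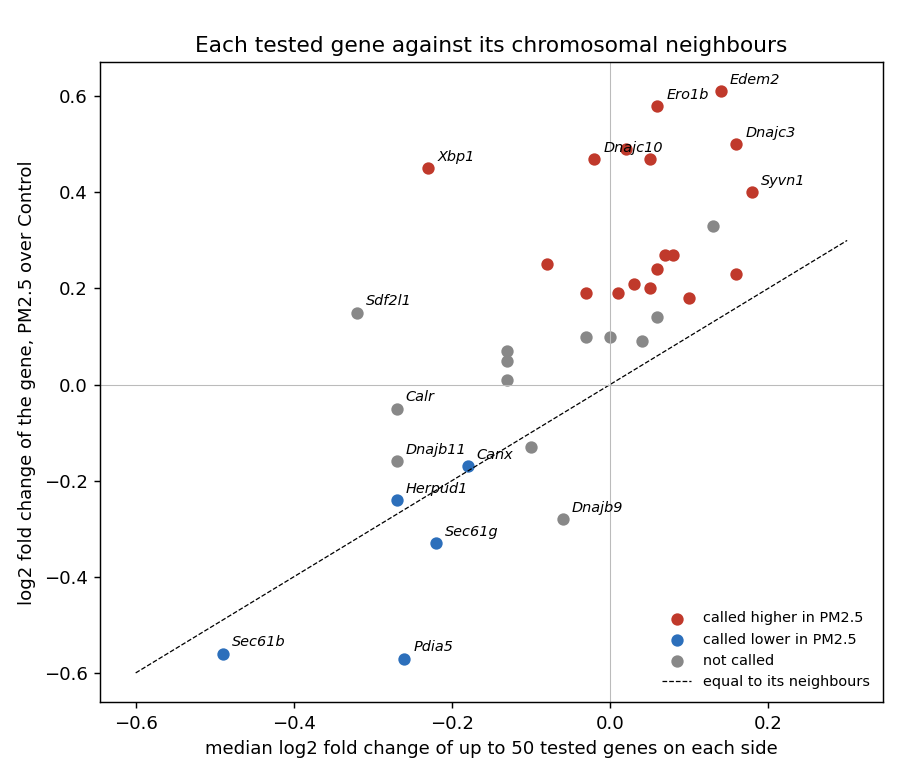
Log2 fold change of each of the 36 tested genes (vertical) against the median log2 fold change of up to 50 tested genes on each side of it (horizontal). The dashed line marks equality, 31 of the 36 genes lie above it, and Pdia5 and Sec61g lie furthest below it among the genes that fell.

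Set against their neighbours in the same test, 18 genes were called higher and 1 lower, where 16.1% of all genes were called higher and 15.5% lower. The sets of higher genes shared 14 members. Hspa5 (log2 fold change 0.17, adjusted p = 0.0397), P4hb (0.20, adjusted p = 0.0208), Calr (0.22, adjusted p = 0.0194) and Sdf2l1 (0.47, adjusted p = 0.00294) were called only there, and Hyou1, Edem3, Derl2 and Sec24d were called only without it. Sec61b (-0.07, adjusted p = 0.442), Sec61g (-0.12, adjusted p = 0.198), Canx (0.01, adjusted p = 0.927) and Herpud1 (0.03, adjusted p = 0.728) were no longer lower, while Pdia5 was (-0.31, adjusted p = 0.0178). Xbp1, on a lowered stretch of chromosome 11, had its log2 fold change go up to 0.68. Of the 36 tested genes 31 lay above their neighbour median (86.1%), against 6245 of the 12478 genes tested.

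Leaving out a PM2.5 library lowered the number called, for these genes and for all genes. Without PM2.5 replicate 1, 11 rose and 3 fell, where 13.7% of all genes tested were called higher and 14.3% lower. Without PM2.5 replicate 2, 9 rose and 3 fell, where 11.7% were called higher and 12.7% lower. The genes whose call held in all 16 alternative analyses were Dnajc3, Dnajc10, Manf, Creld2, Pdia6, Xbp1, Syvn1, Edem2 and Ero1b among those that rose and Pdia5 among those that fell.

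For the genes with an ER stress element, the calls differed when they were set against their neighbours, while the medians changed little. In the comparison without that step, of the 10, 6 rose (Dnajc3, Creld2, Syvn1, Ero1b, Pdia6 and Hsp90b1), Canx fell, Hspa5 and Calr were not called and Derl3 was not tested. Of the 21 with a window and no ERSE, 9 rose and 4 fell. Over all genes tested, 19.2% were called higher and 20.4% lower. Those 21 include Herpud1 (log2 fold change -0.24) and Dnajb11 (-0.16), which hold the related form ERSE-II. The split was not repeated with them counted as holding the element. The median log2 fold change was 0.24 with the element and 0.15 without, and no test was made of that difference. Against their neighbours, 16.1% of all genes tested were called higher and 15.5% lower. Of the 9 tested genes with the element, 8 were called higher there and 0 lower, with Canx not called. Of the 21 without it, 8 were called higher and 1 lower. The median log2 fold changes were then 0.22 and 0.13. Xbp1, Edem2 and Dnajc10, which hold no match in the window, rose by 0.45, 0.61 and 0.47 on the log2 scale, beside 0.50 for Dnajc3 and 0.47 for Creld2, which hold one.

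**Figure D4:**
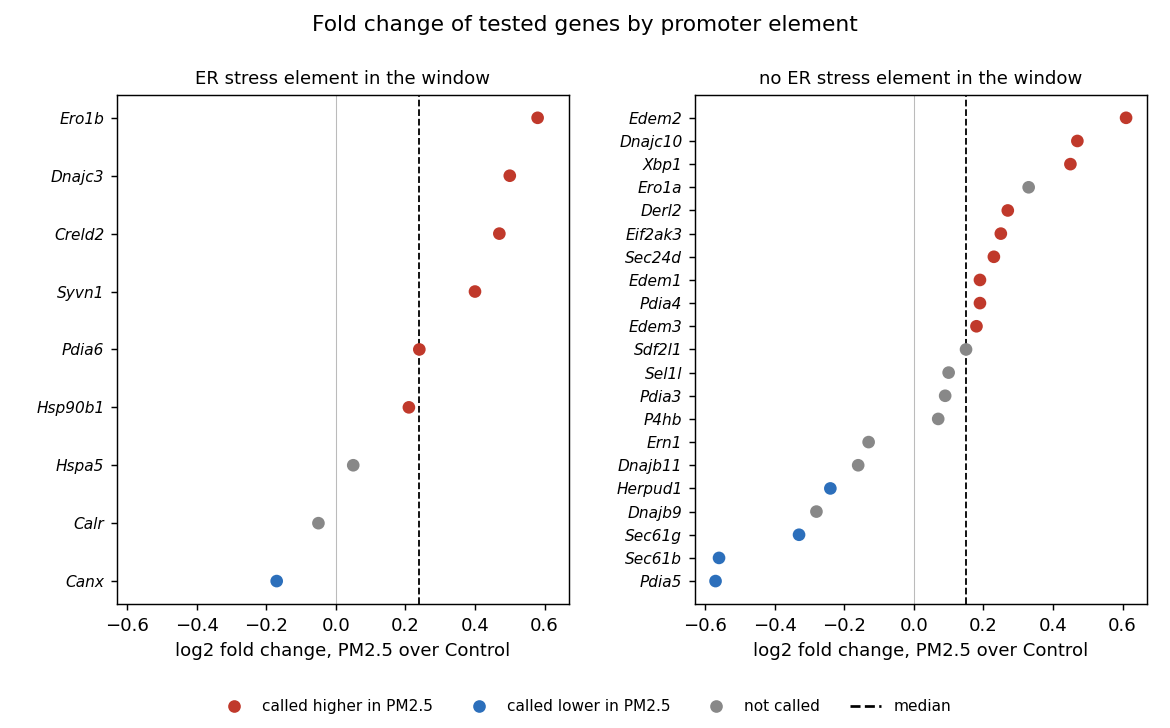
Log2 fold change, PM2.5 over Control, of the tested genes with a RefSeq promoter window, split by presence of the ER stress element, with the median of each panel as a dashed line (0.24 with it, 0.15 without it). Each panel holds genes called higher, genes called lower and genes not called. Herpud1 and Dnajb11, which hold the related form ERSE-II, are in the panel without the element.

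Other genes of the same pathways were counted in 5 lists, beside the same 19.2% higher and 20.4% lower over all genes. Of 49 further folding factors tested from a list of 55, 13 rose and 6 fell, with a median log2 fold change of 0.04. Named by smallest p-value, the thiol retention factor Erp44 fell to 67.8 and 65.8 CPM in PM2.5, against 88.6 and 90.4 CPM in Control, the oxidoreductase gene Txndc12 fell (log2 fold change -0.43) and the prolyl isomerase Fkbp2 rose (0.43). Of 41 other degradation genes tested, 10 rose and 10 fell (median 0.05). Vcp, the ATPase that pulls chains out of the ER membrane, fell to 425 and 421 CPM in PM2.5, against 748 and 691 CPM in Control, or -0.77 on the log2 scale (SE 0.059, adjusted p = 8.447e-06), and the ubiquitin-conjugating enzyme Ube2j1 fell by 0.60 on the log2 scale. Ngly1, which strips N-glycans from extracted chains, rose (log2 fold change 0.62). Against their neighbours Vcp stayed lower (-0.30, adjusted p = 0.00328), while Ube2j1 (-0.16, adjusted p = 0.0552), Txndc12 (-0.16, adjusted p = 0.138) and Erp44 (0.08, adjusted p = 0.364) did not.

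Of 53 tested genes of targeting, translocation and N-glycosylation, 16 rose and 6 fell (median log2 fold change 0.10). Alg11, a mannosyltransferase of glycan assembly, had 16.4 and 16.2 CPM in PM2.5, against 9.15 and 9.08 CPM in Control (log2 fold change 0.84), the membrane insertase subunit Emc2 rose (0.37) and the tail-anchor targeting ATPase Get3 fell (-0.46), the last not called against its neighbours (adjusted p = 0.0525). Of 43 ER export genes, 10 rose and 5 fell (median 0.01), with the cargo receptors Ergic3 (0.35) and Lman2 (0.27) and the coat adaptor Sec24c (0.26) leading by p-value. The call on Sec24c ended against its neighbours (adjusted p = 0.466). Of 29 signalling partners of the unfolded protein response, 8 rose and 7 fell (median 0.02). Among them the death receptor Tnfrsf10b (log2 fold change 0.51), the ER membrane protein Wfs1 (0.57) and Creb3l2, an ER-anchored transcription factor (0.55), rose. Against their neighbours the changes of Tnfrsf10b (0.19, adjusted p = 0.0445), Ergic3 (0.19, adjusted p = 0.041), Lman2 (0.16, adjusted p = 0.0439) and Fkbp2 (0.26, adjusted p = 0.0323) were smaller by more than 1.5 times and still called.

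A further count in the files, total gene reads, is not defined in the headers. It exceeded the count by the most for Sil1, where 43.2% of gene reads lay outside the count in PM2.5 and 31.7% in Control, and for Derl2, at 28.1% in PM2.5 and 28% in Control, among tested genes. For Hspa5 the share was 0.21% in PM2.5 and 0.221% in Control. Over all genes it was 11.7% and 11.6% in the PM2.5 libraries and 9.81% and 10.5% in the Control libraries.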

How the data were processed

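RNA was counted per gene in 2 PM2.5 and 2 Control libraries of a stranded polyA kit, per the labels' protocols. The authors deposited raw, unscaled counts for each gene; the submitters' processing notes name GRCm39. RPKM values (scaled for gene length and depth) were deposited by the authors beside those counts, per the file headers. Aligner, counter, annotation and use of strand: not given in the sources used here.

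Genes were kept with filterByExpr, which left 12478, and scaled by TMM (factors 0.9725 to 1.024). The edgeR 4.0.16 quasi-likelihood test in R 4.3.3 compared PM2.5 with Control, unpaired, with Benjamini-Hochberg adjustment over all genes tested and a threshold of 0.05, using all 4 libraries. Log2 fold changes are PM2.5 over Control, each SE is the size of that change divided by the root of its F statistic, and the 95% intervals come from the same test. CPM is TMM scaled. The fit was also run on simulated counts with far fewer changed genes and no neighbourhood shifts. That setting differs from these data, so it does not give the error rate of the calls here. Replicates differed by more than sampling noise (chi-square per gene 3.76 in PM2.5 and 7.2 in Control). The 95% intervals include the spread between these libraries as estimated in the fit, which may be technical. Floors rest on counts of reads without molecular identifiers and cover counting error only.

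Alternatives were other scalings, other filters, DESeq2 1.42.0, limma 3.58.1 (voom, and trend on log2(RPKM + 0.1) and log2(RPKM + 1)), total gene reads, a replicate block, leaving out each library and the neighbour median as an offset. The genes, roles, lists and alternatives were chosen with earlier results of these data known. All 37 genes are accounted for; of each other list the 3 tested genes with the smallest p-values are named. Promoter windows are RefSeq sequences on GRCm38.p6, matched by symbol for 31 genes and not joined to GRCm39 positions.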

Additional observations from a re-analysis of the deposited data

How the results depend on the processing

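The number of genes that rose, 18, stayed within 13 and 19 and the number that fell, 5, within 4 and 6 under median-ratio factors, upper quartile, no filter, the stricter filter, DESeq2, limma-voom, limma-trend on RPKM and total gene reads. Among all genes, those settings called from 1581 (DESeq2) to 2845 (upper quartile) higher. They called from 1928 (DESeq2) to 2855 (total gene reads) lower, of 11792 to 17974 genes tested. With scaling to library size only 22 rose and 3 fell, with the median of all genes at 0.07 on the log2 scale. In that setting 3090 of all 12478 genes tested were called higher and 1889 lower. The replicate block gave 19 and 6, where 2819 of all 12478 genes were called higher and 2973 lower. The numbers 1 and 2 share no stated source, and the replicate differences of the groups correlated at 0.1241 across genes. Leaving out a library gave 9 to 15 genes higher and 3 to 6 lower; a group of 1 library is then assumed to vary like the other group. These ranges alone do not set the genes described apart from all genes. With a library left out, their median log2 fold change was 0.14 to 0.18, against 0.00 to 0.01 over all genes tested. Against the neighbour median 1 gene was lower, and the log2 fold changes of Herpud1 (0.03), Dnajb11 (0.11), Calr (0.22), Canx (0.01) and Erp44 (0.08) changed sign. Calr changed sign with scaling to library size only (0.02) and without Control replicate 1 (0.01), with -0.11 at its lowest when a library was left out, Sil1 with no filter (-0.01), without PM2.5 replicate 2 (-0.10) and without Control replicate 1 (-0.02), with 0.12 at its highest when a library was left out, and Ero1a without Control replicate 1 (-0.07), with 0.90 at its highest. The causes were not tested. Over 16 alternatives and 36 genes, 495 of 576 values kept direction and call and 10 changed sign. Of values that kept direction, 57 lost the call and 14 gained one. Sign changes were counted apart from calls: against their neighbours Herpud1 and Canx also lost the call and Calr gained one. Depth limits Derl3, with at most 3 counts in a library.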
